A study of Mus musculus with 12 samples.

Results

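Immediate early genes of the EGR, NR4A, IER, BTG and MYC families were followed in granulosa cells of mice, which form the wall of the ovarian follicle and feed the oocyte. The set was Egr1, Egr2, Egr3, Nr4a1, Nr4a2, Nr4a3, Ier2, Ier3, Btg2 and Myc, taken as every probe set of the array table whose platform gene symbol was one of these names. It held 20 of the 45101 probe sets, and 10 of the 18194 genes that could be tested. The cells came from mice with a deletion of exon 6 of Snf2l (Ex6DEL) and from wild-type (WT) littermates. Snf2l is the gene Smarca1, which encodes an ATPase of the ISWI chromatin remodellers. At an age of 24 to 26 days all females were primed with PMSG (pregnant mare serum gonadotropin, 5 IU), a hormone that makes follicles grow. The 4 h groups were injected with hCG (human chorionic gonadotropin, 5 IU) 48 h after PMSG and collected 4 h after that, and the 0 h groups were collected at 48 h without hCG. The 4 groups were Ex6DEL 4 h, Ex6DEL 0 h, WT 4 h and WT 0 h, with 3 arrays each, and the cells of 5 mice were pooled for an array. The deletion was made with a ubiquitously expressed Gata-1 Cre on a CD-1 background, and the line was then kept without Cre on 129SV, so every cell type of the ovary carries it. The labels speak of 5 mice per group and do not say whether a group's 3 arrays were made from different pools. The p-values therefore measure the spread between arrays, which may be technical.

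Immediate early genes are switched on within minutes of a signal, without the need for new protein, and most of their transcripts decay again within hours. In the granulosa cells of a large follicle that signal is luteinizing hormone (LH), whose receptor hCG also binds. The receptor raises cyclic AMP, activates protein kinase A and, through EGF-like ligands, the ERK pathway. Egr1, Egr2 and Egr3 encode zinc finger transcription factors, and Nr4a1, Nr4a2 and Nr4a3 encode orphan nuclear receptors that act without a known physiological ligand and bind near genes of steroid synthesis. Ier2 encodes a nuclear protein of the early response, Ier3 a regulator of survival and ERK signalling, Btg2 an antiproliferative cofactor of mRNA deadenylation, and Myc a transcription factor of growth and ribosome production. At 4 h after hCG, follicles are past the first burst of transcription and still hours from ovulation.

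Promoter sequences are shown because most members moved together across the arrays. The RefSeq table of mouse promoters (GRCm38.p6) matched 6 of the 10 members: Egr2, Nr4a1, Nr4a2, Nr4a3, Btg2 and Ier3. The 250 bases before each transcription start are printed from 5′ to 3′ in the direction of the gene. Capitals mark TGACG, the core of the cyclic AMP response element (CRE), on either strand, where the other strand reads CGTCA, and they also mark the CArG box bound by serum response factor.
Egr2: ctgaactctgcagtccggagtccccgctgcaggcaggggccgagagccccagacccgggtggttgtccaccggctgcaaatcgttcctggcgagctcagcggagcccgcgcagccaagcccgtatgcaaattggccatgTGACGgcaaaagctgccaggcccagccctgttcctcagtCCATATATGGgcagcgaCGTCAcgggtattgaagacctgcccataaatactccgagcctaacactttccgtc
Nr4a1: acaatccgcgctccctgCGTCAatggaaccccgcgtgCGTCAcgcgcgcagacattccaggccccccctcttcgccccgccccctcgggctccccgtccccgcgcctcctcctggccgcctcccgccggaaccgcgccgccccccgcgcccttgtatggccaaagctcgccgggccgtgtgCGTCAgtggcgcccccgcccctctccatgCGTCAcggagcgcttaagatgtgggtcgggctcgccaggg
Nr4a2: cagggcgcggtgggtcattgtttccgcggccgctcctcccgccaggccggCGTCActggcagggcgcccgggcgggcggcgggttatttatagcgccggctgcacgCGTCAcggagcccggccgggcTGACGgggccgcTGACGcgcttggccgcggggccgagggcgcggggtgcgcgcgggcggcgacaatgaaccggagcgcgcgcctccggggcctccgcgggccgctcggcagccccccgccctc
Nr4a3: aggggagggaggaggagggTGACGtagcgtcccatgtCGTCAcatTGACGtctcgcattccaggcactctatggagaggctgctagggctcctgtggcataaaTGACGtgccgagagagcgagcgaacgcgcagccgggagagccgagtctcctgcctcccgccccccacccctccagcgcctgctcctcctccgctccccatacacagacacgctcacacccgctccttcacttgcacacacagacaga
Btg2: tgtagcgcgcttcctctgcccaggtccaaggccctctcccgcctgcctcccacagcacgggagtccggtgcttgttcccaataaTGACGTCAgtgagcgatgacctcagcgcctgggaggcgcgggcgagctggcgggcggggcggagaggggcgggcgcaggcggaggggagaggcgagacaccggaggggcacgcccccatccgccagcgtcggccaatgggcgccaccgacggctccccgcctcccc
Ier3: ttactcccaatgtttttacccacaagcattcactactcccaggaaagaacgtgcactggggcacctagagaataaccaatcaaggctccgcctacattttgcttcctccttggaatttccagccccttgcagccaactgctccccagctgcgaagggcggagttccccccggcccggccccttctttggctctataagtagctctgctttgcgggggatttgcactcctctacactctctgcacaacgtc
These windows lie at chr10:67537619-67537868 on the plus strand for Egr2, which is 1 of 5 starts listed for it, and at chr15:101266596-101266845 on the plus strand for Nr4a1. They lie at chr2:57124004-57124253 on the minus strand for Nr4a2, chr4:48045055-48045304 on the plus strand for Nr4a3, chr1:134079156-134079405 on the minus strand for Btg2 and chr17:35821463-35821712 on the plus strand for Ier3. The windows of Nr4a1, Nr4a2 and Nr4a3 each held 4 copies of TGACG. In Nr4a1 they began 233, 213, 69 and 40 bases before the start, in Nr4a2 at 200, 144, 123 and 111, and in Nr4a3 at 231, 213, 205 and 147. Among all 32851 windows, 17.8% held at least 1 copy and 0.137% held 4 or more. Egr2 held 2 copies, at 111 and 55 bases, around the CArG box at 72, and 1.47% of all windows held a CArG box. Btg2 held the full palindrome TGACGTCA at 166 bases, which contains the core on both strands and was found in 1.55% of windows. The site of the EGR proteins, searched as GCGTGGGCG or GCGGGGGCG on both strands, was found once, at 60 bases in Nr4a1, and in 3.06% of all windows. None of these letters occurred in the window of Ier3. A match is a description of letters and not of binding, and windows of 1 gene can overlap.

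The deposited values were log2 intensities per probe set, with a floor of 2.21 and a highest value of 18.18, and the medians of the arrays lay between 2.75 and 2.91. Arrays of one group correlated at 0.964 to 0.991 across all 45101 probe sets, which are not independent replicates. Ex6DEL 0 h replicate 3 correlated at 0.987 with an array of the other genotype, WT 4 h replicate 3, against at most 0.981 with the other arrays of its own group. With the Ex6DEL arrays of 4 h it reached no more than 0.981. The granulosa marker Inha, an inhibin subunit, lay at 16.30 or above on every array, while Amh, made by small growing follicles, was at the floor on all 12. Of 10 measured granulosa markers and 10 of theca and stroma, the mean level per array ran from 11.60 to 14.28 and from 7.80 to 12.24. The level of 12.24 belonged to Ex6DEL 0 h replicate 1, and the other 11 arrays lay at 9.42 or below. Among 8 endothelial markers Pecam1 was at the floor throughout, while Kdr ran from 5.91 to 9.39 and Esam from 6.14 to 9.44. Among 4 red cell markers the haemoglobin gene Hba-a1 was at the floor, while Alas2 ran from 7.98 to 11.47 and Slc4a1 from 5.46 to 6.11. The mean of 9 oocyte markers ran from 6.66 on WT 0 h replicate 1 to 8.81 on Ex6DEL 0 h replicate 1, with Gdf9 at 9.62 to 12.38. The means of 10 leukocyte markers ran from 4.81 to 5.74, with Laptm5 at 5.99 to 11.78, and those of 8 surface epithelium markers from 4.63 to 6.51. Smarca1 itself averaged 11.32 ± 0.77 in Ex6DEL and 11.36 ± 0.84 in WT cells at 4 h, and 10.76 ± 0.18 in Ex6DEL and 10.72 ± 0.40 in WT cells at 0 h (SD, n = 3 arrays). Whether its probe set lies in exon 6 was not examined, so this level does not check the genotype.

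One array of each 0 h group carried high levels of the immediate early genes. On Ex6DEL 0 h replicate 3 the level of 9 of the 10 members was more than 1 log2 unit above the mean of the other 2 arrays of its group, with a median excess of 5.54 over the 10 members against -0.00 over all genes. Of the members, 7 were higher there than on any Ex6DEL array of 4 h, namely Egr1, Egr2, Nr4a1, Nr4a2, Nr4a3, Ier2 and Btg2. Nr4a3 stood out most, at 10.68 on this array against 2.32 on each of the others, an excess of 8.36 that only 3 of all genes surpassed. Egr3 at 9.27 and Ier3 at 14.09 were also far above the other arrays of their group, by 6.49 and 5.09, yet remained below every Ex6DEL array of 4 h. Myc moved the other way, at 6.06 on this array against a mean of 7.23 on the other 2.

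WT 0 h replicate 1 showed a narrower pattern. The 3 NR4A genes, Egr1, Egr2 and Btg2 were 3.16 to 5.66 above the other WT arrays of 0 h and lay within the range of the WT arrays of 4 h. Nr4a3 was again the member with the largest excess, at 8.38 against 2.32 and 3.13. Egr3, Ier2 and Ier3 exceeded the other arrays by 1.03, 0.75 and 1.39, and Egr3 and Ier3 remained 4.85 and 3.54 below the lowest WT array of 4 h. Thus the excess of Egr3 and Ier3 was large on 1 of the 2 raised arrays and small on the other, while that of the NR4A genes was large on both. The plot of raised arrays sets each excess beside the difference of the 4 h arrays.

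**Figure D1:**
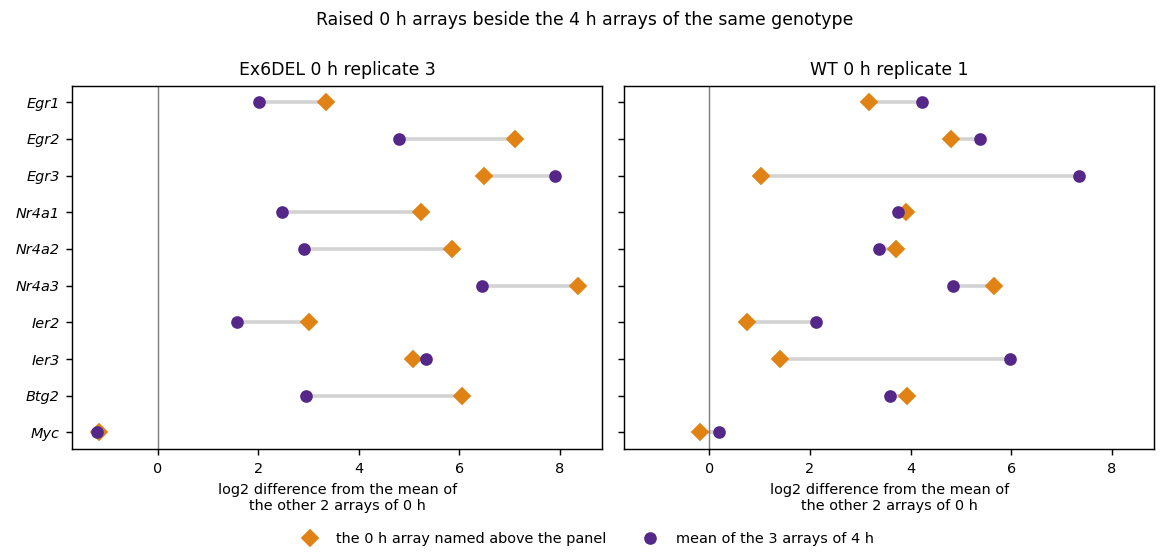
Log2 difference of Ex6DEL 0 h replicate 3 (left) and WT 0 h replicate 1 (right) from the mean of the other 2 arrays of the same 0 h group (orange diamonds), with the difference of the mean of the 3 arrays of 4 h from the same 2 arrays (purple circles), for each member. In Ex6DEL the diamonds of Egr1, Egr2, Ier2, Btg2 and the NR4A genes lie right of their circles by more than that of Myc, at -1.17 against -1.21, and in WT those of Egr3 at 1.03 and of Ier3 at 1.39 lie far to the left of theirs.

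Other gene groups were read on the same 2 arrays. The mean of 46 other immediate early genes was 9.28 on Ex6DEL 0 h replicate 3, against 6.80 and 7.15 on the other arrays of its group, and 7.69 on WT 0 h replicate 1, against 6.99 and 6.92. Of 11 heat shock genes, which report protein stress, the mean was 10.97 on the raised Ex6DEL array against 10.65 and 10.66, and 9.80 on the raised WT array against 10.43 and 10.46. Heat shock genes were thus higher on one raised array and lower on the other than in the rest of the group. Theca and stroma markers averaged 8.46 on the raised Ex6DEL array, below 12.24 and 9.42, and 9.39 on the raised WT array, next to 9.29 and 8.30. The part that any of these groups has in the levels of the members was not tested, nor was a wrong label of an array. Labels and files give no batch or scan time for the arrays. Results below are given for all 12 arrays and again for the 10 that remain without these 2. Because they were set aside for high ovulatory and immediate early genes, the members included, that choice by itself makes changes over 10 arrays larger, their errors smaller and the calls more numerous. The values and adjusted p over 10 arrays are therefore a description of those arrays and no independent support, and each 0 h group then holds 2 arrays.

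After hCG, averaged over both genotypes and all 12 arrays, Egr3 and Ier3 were the 2 members of 10 that passed the test. Egr3 rose 82.8-fold and Ier3 rose 23.8-fold, log2 changes of 6.37 and 4.57 that became 7.45 and 5.42 without Ex6DEL 0 h replicate 3 alone, and 7.62 and 5.65 over 10 arrays. Across all genes 9.72% were called in this comparison, with limma's adjusted p under 0.05 in either direction. The median log2 change was 1.82 over the members and -0.01 over all genes. Another 7 members had positive changes of 1.23 to 3.31 that did not pass, and Myc changed by -0.28. Over the 10 arrays 9 of the 10 members rose and none fell, where 12.6% of all genes were called, with a median change of 3.21 over the members against -0.01. Within a genotype and over 12 arrays no member passed in either, with 2.17% of all genes called in Ex6DEL and 0.929% in WT. In each genotype 3 members had an unadjusted p under 0.05, beside 3439 of the 18194 genes in Ex6DEL and 2620 in WT. The 3 in Ex6DEL included Myc, with a negative change. Over the 10 arrays 6 members rose and 1 fell in Ex6DEL, with 7.11% of genes called, and 4 rose in WT, with 1.76% called. When arrays of the same number were paired as blocks across all 4 groups, the Ex6DEL count over 10 arrays was 2, Egr3 and Ier3. Egr2, Nr4a2, Nr4a3, Btg2 and Myc no longer passed. The averaged count over 10 arrays was then 7, without Egr1 and Ier2. Paired over 12 arrays 92 genes in place of 394 were called in Ex6DEL, also without a member. In RNA of pooled cells, fewer cells of a kind and less RNA per cell cannot be told apart.

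**Figure D2:**
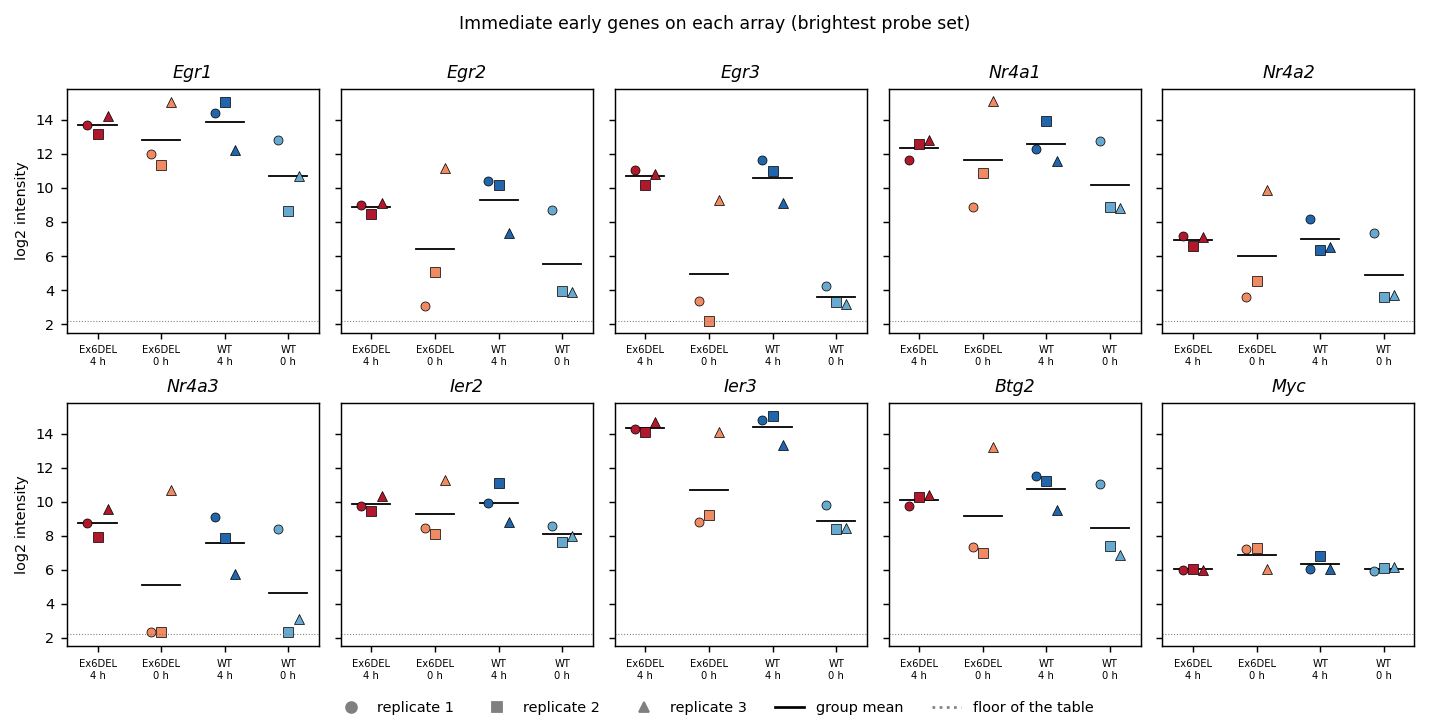
Log2 intensity (y axis) of each member on each array, by its brightest probe set, in Ex6DEL 4 h, Ex6DEL 0 h, WT 4 h and WT 0 h from left to right. Shapes give the replicate number, lines the group mean, and the dotted line the floor of 2.21. The triangle of Ex6DEL 0 h and the circle of WT 0 h stand above their groups in the NR4A panels, and in the Egr3 and Ier3 panels the 4 h arrays of WT lie wholly above those of 0 h.

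Egr3, the EGR factor with the largest response, read 11.05, 10.19 and 10.83 in Ex6DEL cells at 4 h, against 3.36, 2.21 and 9.27 at 0 h. In WT cells it read 11.64, 10.98 and 9.10 at 4 h, against 4.25, 3.28 and 3.17 at 0 h. The groups did not overlap in either genotype, and apart from the raised Ex6DEL array the 0 h values lay near the floor, where fold changes are limited by background. The change was 5.74 ± 1.60 in Ex6DEL (SE, limma adjusted p = 0.102) and 7.00 ± 1.60 in WT (adjusted p = 0.0866), and 6.37 ± 1.13 averaged (adjusted p = 0.013). Over 10 arrays it became 7.90 ± 0.76 in Ex6DEL and 7.34 ± 0.76 in WT, with adjusted p = 0.00698 and 0.0106. In WT over all arrays the change of Egr3 ranked 12 among 18194 genes. Its other probe set lay at the floor on all 12 arrays and measured nothing.

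Ier3 read 14.26, 14.11 and 14.67 in Ex6DEL cells at 4 h, against 8.81, 9.20 and 14.09 at 0 h. WT cells had 14.77, 15.03 and 13.35 at 4 h, against 9.81, 8.39 and 8.44 at 0 h. Within each genotype the 4 h arrays lay above those of 0 h, although in Ex6DEL the gap was only that between 14.11 and 14.09. The change was 3.65 ± 1.26 in Ex6DEL (adjusted p = 0.163), 5.50 ± 1.26 in WT (adjusted p = 0.0856) and 4.57 ± 0.89 averaged (adjusted p = 0.0177, limma). Without the raised arrays Ier3 changed by 5.34 ± 0.49 in Ex6DEL and 5.97 ± 0.49 in WT, with adjusted p = 0.00608 and 0.00452. Besides Egr3 and Ier3, only Ier2 in WT had 4 h arrays wholly above those of 0 h. That makes 2 members in Ex6DEL and 3 in WT, where 5.13% and 7.52% of all genes had 4 h arrays higher without overlap.

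Egr1, the founding EGR gene, read 13.67, 13.14 and 14.24 in Ex6DEL cells at 4 h, against 11.98, 11.37 and 15.02 at 0 h. In WT cells it read 14.42, 15.02 and 12.22 at 4 h, against 12.82, 8.63 and 10.69 at 0 h. The groups overlapped in both genotypes, through the raised array in each, and WT 4 h replicate 3 was the lowest of its group. Changes of 0.89 ± 1.29 in Ex6DEL and 3.18 ± 1.29 in WT did not pass (adjusted p = 0.802 and 0.306). Over 10 arrays Egr1 rose by 3.12 ± 0.68 averaged over genotypes (adjusted p = 0.0323), and neither genotype passed by itself.

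Egr2 read 8.98, 8.46 and 9.13 in Ex6DEL cells at 4 h, against 3.04, 5.07 and 11.15 at 0 h. The WT values were 10.37, 10.18 and 7.36 at 4 h, against 8.72, 3.92 and 3.91 at 0 h. Apart from the raised arrays, every 0 h value was at least 3.39 below every 4 h value of its genotype. The changes of 2.44 ± 2.10 and 3.78 ± 2.10 (adjusted p = 0.571 and 0.486) became 4.80 ± 1.01 and 5.38 ± 1.01 over 10 arrays, where Ex6DEL passed (adjusted p = 0.0423) and WT did not (adjusted p = 0.0595). The second Egr2 probe set followed the same order, with changes of 2.59 ± 0.87 in Ex6DEL and 4.40 ± 0.87 in WT over 10 arrays that passed in neither when all probe sets were tested. In that fit the brightest Egr2 probe set did not pass in Ex6DEL either (limma adjusted p = 0.0567).

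Nr4a1, known as Nur77, read 11.66, 12.58 and 12.81 in Ex6DEL cells at 4 h, against 8.91, 10.86 and 15.11 at 0 h. WT cells had 12.29, 13.95 and 11.56 at 4 h, against 12.74, 8.89 and 8.80 at 0 h. The highest of all 12 values belonged to a 0 h array, Ex6DEL replicate 3, and 0 h and 4 h overlapped in both genotypes. The change of 0.72 ± 1.62 in Ex6DEL and 2.45 ± 1.62 in WT did not pass (adjusted p = 0.941 and 0.579). Over 10 arrays the average of 3.11 ± 0.60 did (adjusted p = 0.0226).

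Nr4a2, known as Nurr1, read 7.15, 6.60 and 7.13 in Ex6DEL cells at 4 h, against 3.58, 4.50 and 9.90 at 0 h. In WT cells it read 8.15, 6.34 and 6.50 at 4 h, against 7.33, 3.57 and 3.70 at 0 h. The 4 h arrays of Ex6DEL lay within 0.54 of each other, while the 0 h arrays of that genotype spanned 6.32. Over 10 arrays Nr4a2 rose by 2.92 ± 0.58 in Ex6DEL and 3.36 ± 0.58 in WT (limma adjusted p = 0.0373 and 0.0489), against 0.96 ± 1.64 and 2.13 ± 1.64 over 12. When all probe sets were tested over 10 arrays, the brightest of Nr4a2 passed in Ex6DEL (limma adjusted p = 0.0499) and not in WT (adjusted p = 0.0592). Of its 6 probe sets, the second brightest showed the same 2 raised arrays at 8.94 and 7.11. Over 10 arrays it changed by 1.92 ± 0.78 in Ex6DEL and 1.93 ± 0.78 in WT, passing in neither (limma adjusted p = 0.267 and 0.418). The remaining 4 stayed at 5.05 or below.

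Nr4a3, known as Nor1, read 8.75, 7.94 and 9.59 in Ex6DEL cells at 4 h, against 2.32, 2.32 and 10.68 at 0 h. WT cells had 9.10, 7.89 and 5.74 at 4 h, against 8.38, 2.32 and 3.13 at 0 h. Its 0 h values were therefore either close to the floor or as high as at 4 h. The changes of 3.65 ± 2.41 in Ex6DEL and 2.96 ± 2.41 in WT had the widest errors of the set. Over 10 arrays they were 6.44 ± 0.97 (adjusted p = 0.0197) and 4.85 ± 0.97 (adjusted p = 0.072). The other probe sets of Nr4a3 varied little, the highest value being 4.78 on WT 0 h replicate 1.

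Btg2 read 9.72, 10.25 and 10.37 in Ex6DEL cells at 4 h, against 7.31, 7.00 and 13.21 at 0 h. The WT values were 11.49, 11.20 and 9.53 at 4 h, against 11.07, 7.41 and 6.87 at 0 h. As with the NR4A genes, the highest value of all arrays was on the raised Ex6DEL array of 0 h. The changes were 0.94 ± 1.70 in Ex6DEL and 2.29 ± 1.70 in WT over 12 arrays, neither passing. Over 10 arrays Btg2 rose by 2.96 ± 0.58 in Ex6DEL and 3.60 ± 0.58 in WT (adjusted p = 0.0367 and 0.0429), and its second probe set gave 2.84 ± 0.45 and 2.80 ± 0.45. When all probe sets were tested, the brightest passed in Ex6DEL (limma adjusted p = 0.049) and not in WT (adjusted p = 0.0505). The second passed in both (limma adjusted p = 0.0291 and 0.0499).

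Ier2 had the smallest positive average change of the set. It read 9.76, 9.47 and 10.32 in Ex6DEL cells at 4 h, against 8.43, 8.09 and 11.27 at 0 h. WT cells had 9.94, 11.09 and 8.82 at 4 h, against 8.58, 7.64 and 8.01 at 0 h. All WT arrays of 4 h lay above those of 0 h, by 0.24 at the closest. Neither the change of 0.58 ± 0.86 in Ex6DEL nor that of 1.87 ± 0.86 in WT passed (adjusted p = 0.81 and 0.369), and over 10 arrays the average of 1.86 ± 0.44 passed (adjusted p = 0.0417).

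Myc did not share the pattern of the others. It read 6.00, 6.06 and 6.00 in Ex6DEL cells at 4 h, against 7.22, 7.25 and 6.06 at 0 h, and 6.06, 6.83 and 6.06 in WT cells at 4 h, against 5.94, 6.10 and 6.15 at 0 h. The values of 7.22 and 7.25 were the highest of all 12 arrays, and the array where the other members were raised was at the level of 4 h. Ex6DEL 4 h replicate 2 and Ex6DEL 0 h replicate 3 held exactly the same value, 6.06422, and WT 4 h replicates 1 and 3 both held 6.05863. Dim probe sets repeat values in this way, so the low values of Myc may be background, with errors that are then too small. This was not tested. The change was -0.82 ± 0.32 in Ex6DEL (adjusted p = 0.212) and 0.25 ± 0.32 in WT (adjusted p = 0.82). Over 10 arrays Myc fell by 1.21 on the log2 scale in Ex6DEL (SE 0.22, adjusted p = 0.0319), a call that was lost when same-numbered arrays were paired. Its 2 highest arrays, Ex6DEL 0 h replicates 1 and 2, were also the 2 highest in theca and stroma markers, at 12.24 and 9.42. They were the 2 highest in granulosa markers as well, at 14.28 and 13.67. The next arrays came close to replicate 2, at 9.39 (WT 0 h replicate 1) and 13.50 (WT 0 h replicate 3). The part of these cells in the level of Myc was not tested.

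**Figure D3:**
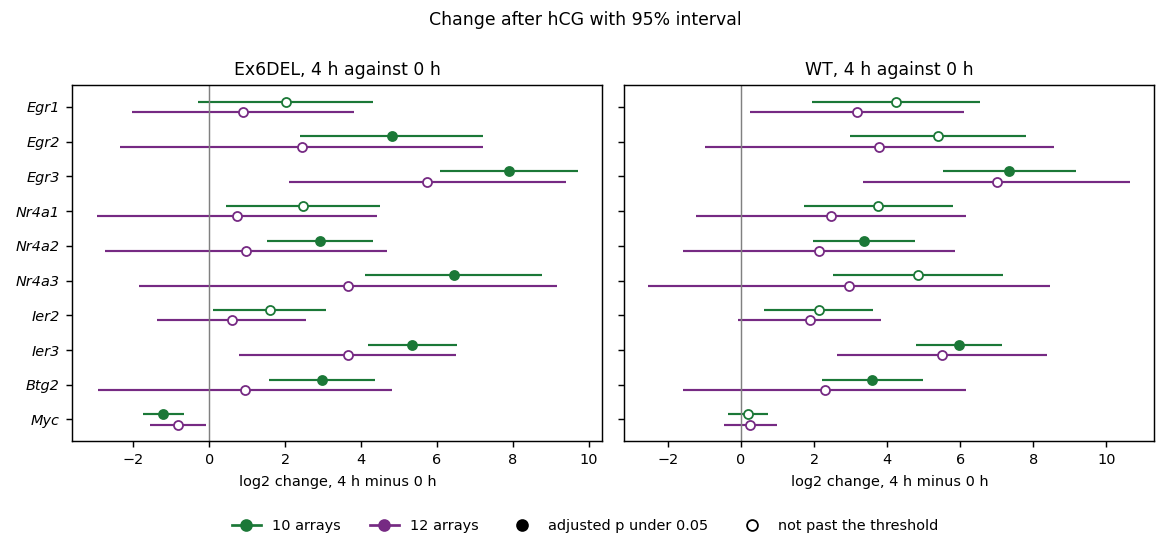
Log2 change of each member, 4 h minus 0 h (x axis), in Ex6DEL (left) and WT (right), with the 95% interval of the limma fit, over 10 arrays (green) and 12 arrays (purple). Filled circles passed an adjusted p under 0.05. No purple circle is filled, while 7 green ones are filled in Ex6DEL and 4 in WT, and every interval is narrower over 10 arrays, as the choice of the arrays left out favours.

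Ex6DEL and WT cells were then compared at each time, the question that the deletion poses. At 4 h no member differed past the threshold, nor did any gene, so that 0% were called over 12 arrays and 0% over 10 (limma, 294 genes with an unadjusted p under 0.05 over 12 arrays and no member among them). Differences of Ex6DEL from WT ran from -0.62 to 1.19, and 2 of 10 were positive. Nr4a3 differed most, by 1.19 with an interval of -4.31 to 6.69, followed by Btg2 at -0.62 (-4.49 to 3.25) and Egr2 at -0.45 (-5.22 to 4.33). No member had arrays that did not overlap between genotypes, where 2.98% of all genes did. Over 10 arrays, with the same 4 h arrays and a spread estimated without the raised ones, the differences were the same and the intervals narrower, at -0.90 to 3.27 for Nr4a3, -1.87 to 0.63 for Btg2 and -2.61 to 1.71 for Egr2.

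At 0 h all 10 members were higher in Ex6DEL than in WT, by 0.50 to 2.08, and none passed. Over all genes 0.033% were called, and 975 had an unadjusted p under 0.05. Of the members only Myc was among these 975, with a difference of 0.78 ± 0.32 (limma adjusted p = 0.874). Its low values may be background, as said above. Egr1 differed most, by 2.08 ± 1.29, then Ier3 by 1.82 ± 1.26 and Nr4a1 by 1.48 ± 1.62. Both groups hold a raised array, and the Ex6DEL one was the higher in all 10 members. Over 10 arrays the differences ran from -0.44 to 2.02, with none past the threshold and 0.335% of all genes called. Myc then differed by 1.11 ± 0.25 (adjusted p = 0.309) and Egr1 by 2.02 ± 1.05 (adjusted p = 0.754). All 10 members overlapped between genotypes at 0 h, where 6.41% of genes did not.

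No member passed the test of a difference in hCG response between the genotypes. That difference of the responses, Ex6DEL minus WT, ran from -2.28 to 0.69, with 0.011% of all genes called over 12 arrays and 583 with an unadjusted p under 0.05. Egr1 at -2.28 ± 1.82, Ier3 at -1.85 ± 1.78 and Nr4a1 at -1.73 ± 2.29 were the largest, none with an adjusted p under 0.871. Myc, at -1.07 ± 0.45 and with low values that may be background, was the only member among those 583 genes. Over 10 arrays the difference was -2.22 ± 1.36 for Egr1, -0.62 ± 0.69 for Ier3 and -1.40 ± 0.32 for Myc (adjusted p = 0.46), with no member and 0.154% of all genes called.

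Other immediate early genes were read beside the 10 members. Of 46 measured immediate early genes outside the set, 13 rose and none fell when averaged over genotypes and 12 arrays, where 9.72% of all genes were called, and 43 of 46 changes were positive, with a median of 1.27. Ptgs2, the prostaglandin synthase of ovulation, rose by 8.15 ± 1.34 (limma adjusted p = 0.00999). Errfi1, a feedback inhibitor of the EGF receptor, rose by 4.58 ± 0.61, and Ier5 rose by 4.34 ± 0.65. The other 10 that rose were Maff, Pim1, Arc, Nfil3, Phlda1, Dusp5, Rgs2, Csrnp1, Plk3 and Mafk, by 3.82 for Maff down to 0.85 for Mafk. Over 10 arrays 21 of the 46 rose, where 12.6% of all genes were called, among them Junb, a partner of Fos, by 5.08 ± 0.65 and Klf4, a zinc finger factor, by 3.39 ± 0.21. Within a genotype and over 12 arrays none of the 46 passed in Ex6DEL, where 2.17% of all genes were called. In WT 2 rose, Nfil3 and Errfi1, where 0.929% of all genes were called.

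Regulators around the EGR and CREB factors were read in the averaged response, where 9.72% of all genes were called over 12 arrays and 12.6% over 10. Of 4 measured genes of the EGR family and its cofactors, none passed over 12 arrays. The smallest p-values belonged to the EGR corepressors Nab1 and Nab2, at 1.24 ± 0.36 and 1.66 ± 0.64, and to Wt1, at -0.35 ± 0.22. Nab2 rose by 2.25 ± 0.51 over 10 arrays (adjusted p = 0.0359, limma). Among 18 of 26 listed genes of the ERK, CREB and SRF inputs that were measured, none passed over 12 arrays. Crem, which encodes the cAMP-inducible repressor ICER as well as activators, changed by 4.33 ± 1.28 over 12 arrays (adjusted p = 0.0716) and rose by 6.03 ± 0.54 over 10 (adjusted p = 0.00274). Mef2a and Elk1, at -0.51 ± 0.16 and -0.66 ± 0.26, did not pass over 12 arrays. Among 6 measured genes of the BTG and TOB family, Cnot8, a deadenylase subunit that binds BTG proteins, fell by 0.73 (SE 0.17, adjusted p = 0.0346), and Btg1 rose by 3.29 ± 0.49 over 10 arrays.

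In the MYC network, 1 of 11 measured genes rose and 3 fell, averaged over genotypes and 12 arrays, where 9.72% of all genes were called. Mxi1, an antagonist of MYC, rose by 1.31 ± 0.29, while Mycn, Mxd4 and Mlx fell by 1.14, 1.24 and 0.77. Over 10 arrays none of the 11 rose and 5 fell, namely Mycn, Mxd4, Mlx, Mga and Mlxip, so that Mxi1 no longer passed. Of all genes 12.6% were called over 10 arrays, and 1771 of those 2301 calls were falls. Mxd4 also fell in Ex6DEL alone, by 1.73 (SE 0.35, limma adjusted p = 0.0465). Of 20 genes known as MYC targets, 4 rose and none fell over 12 arrays, beside 9.72% of all genes called. Over 10 arrays 4 rose and 1 fell, Ccnd2, which encodes cyclin D2, by 1.05 (limma adjusted p = 0.0433). Odc1, the first enzyme of polyamine synthesis, rose by 3.17 ± 0.46 and Eif4e, the cap-binding factor, by 2.72 ± 0.54, whereas the nucleolar genes Nop2 and Gnl3 rose by 0.77 and 0.64. Among 13 measured partners and steroidogenic targets of the NR4A receptors none passed over 12 arrays, and 3 of 13 average changes were positive. Closest were Nr5a1 at -1.29 ± 0.37, Rxrb at -0.94 ± 0.27 and the progesterone-degrading Akr1c18 at 1.49 ± 0.44. Over 10 arrays Nr5a1, the steroidogenic factor SF-1, fell by 1.57 and Rxrb, a retinoid X receptor, by 1.15, beside the 12.6% of all genes called. Of 11 heat shock genes 1 rose over 12 arrays, Hsph1 by 2.05 ± 0.35, a share near the 9.72% of all genes called.

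**Figure D4:**
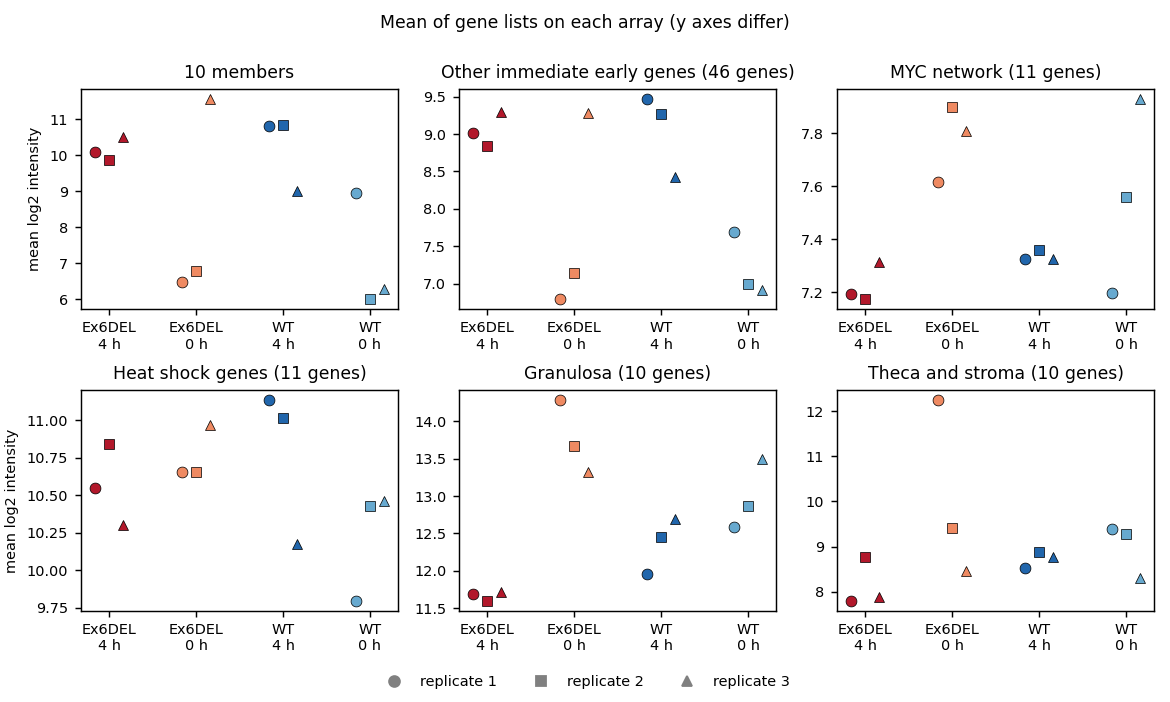
Mean log2 intensity of each gene list on each array (y axes differ between panels), in Ex6DEL 4 h, Ex6DEL 0 h, WT 4 h and WT 0 h from left to right, with shapes for the replicate number. The 10 members and the 46 other immediate early genes are high on Ex6DEL 0 h replicate 3, at 11.58 and 9.28, and the theca and stroma markers on Ex6DEL 0 h replicate 1, at 12.24.

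The mean of the 10 members placed every array on one scale. It was 10.10, 9.88 and 10.51 in Ex6DEL 4 h, against 6.50, 6.79 and 11.58 in Ex6DEL 0 h. In WT it was 10.82, 10.85 and 9.02 at 4 h, against 8.96, 6.01 and 6.29 at 0 h. The raised Ex6DEL array had the highest mean of all 12, the raised WT array came just below the lowest 4 h array, WT 4 h replicate 3, and the other 4 arrays of 0 h lay far below.

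Genes whose level followed a member most closely over the 12 arrays were sought among 9087 genes above the median level. The correlations describe 12 arrays that share 4 groups and 2 raised arrays. Nr4a1 was followed by Gadd45b at r = 0.967, Plk2, Cbarp, Junb and Klf4 at 0.904. Gadd45b, a stress sensor of the p38 pathway, read 8.40, 9.62 and 10.30 in Ex6DEL 4 h against 5.76, 7.58 and 12.77 in Ex6DEL 0 h. Its WT values were 9.52, 10.61 and 8.35 at 4 h against 10.09, 7.21 and 6.59 at 0 h. Both raised arrays are among those over which it was chosen.

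Ier3 was followed instead by Prkx at r = 0.986, Hs3st1, Chgb, Ptgs2 and Tnfaip6 at 0.983. Tnfaip6, a protein of the expanding cumulus matrix, read 14.00, 13.60 and 14.07 in Ex6DEL 4 h against 5.53, 3.23 and 12.57 in Ex6DEL 0 h. Its WT values were 14.24, 14.64 and 13.14 at 4 h against 6.68, 4.67 and 4.87 at 0 h. Ptgs2 read 10.08 on the raised Ex6DEL array and 5.33 on the raised WT array, with 10.83 the lowest value of 4 h in either genotype. Both were chosen for following Ier3 on these arrays, so that their likeness to it there is no separate result.

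Egr1 was followed by Rgs2 at r = 0.944, Arrdc3, Ptger4, Btg1 and Zeb2 at 0.913. Rgs2, a brake on G protein signalling, read 13.72 on the raised WT array, against 12.21 and 13.38 on the other WT arrays of 0 h. Myc was followed by Psmd4 at r = 0.969, Rpl7a, Fam193b, Smarca4 and Stk16 at 0.925. Rpl7a, a ribosomal protein gene, read 14.32, 14.58 and 14.23 in Ex6DEL 4 h against 15.85, 15.51 and 14.58 in Ex6DEL 0 h. The same 2 arrays of 0 h were highest as for Myc. Rpl7a was chosen for following Myc on these arrays, so that this likeness is no separate result.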

How the data were processed

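The authors deposited 1 table of log2 intensities per probe set for 12 Affymetrix mouse arrays, and GCRMA (version not given), which corrects background, normalizes between arrays and summarises probes, is named in the submitters' processing notes. GCRMA pulls dim probe sets to background values that differ between probe sets, so changes of dim genes can be understated, and their spread between arrays too. A platform table gave exactly 1 symbol to 34958 probe sets. The brightest probe set, by its mean over the 12 arrays, stood for each of 18194 genes. A model with 4 groups was fitted across all genes with limma 3.58.1 in R 4.3.3 (lmFit, eBayes, 8 residual degrees of freedom), two-sided, adjusted by Benjamini-Hochberg over all genes, and checked on simulated data. Figures were drawn with matplotlib 3.10.9. Precision is limited by 3 arrays per group.

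The 10 members, the 8 gene lists and the 7 marker lists were chosen with earlier results of these data known. All members are named. For genotype contrasts the 3 with the largest difference are given, of other lists those past the threshold over 12 arrays, or else the 3 with the smallest p of the averaged response, and further ones past the threshold over 10 arrays were chosen after their values were seen. Also given are the 5 genes most like Egr1, Nr4a1, Ier3 and Myc. Deviations of same-numbered arrays correlated at 0.140 to 0.349 in all 3 pairs of Ex6DEL 4 h and 0 h, so the numbers were read as pairing these arrays. The values printed per member, with their SE and adjusted p, come from the fit without a block and leave that pairing out. The block fitted the replicate number across all 4 groups, WT included. The paired counts, which stand beside the counts, therefore do not come from pairing the Ex6DEL arrays alone. In the other pairs of groups compared at least 1 pair fell below 0.1. Single same-numbered pairs across genotypes nevertheless correlated more strongly, up to 0.66 at 4 h and 0.45 at 0 h. The likeness of same-numbered arrays is therefore not particular to Ex6DEL.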

Additional observations from a re-analysis of the deposited data

How the results depend on the processing

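Counts of called members and of all genes called depended on the setting. Without both raised 0 h arrays the members called were 7 in Ex6DEL, 4 in WT and 9 averaged, with 1293 and 320 genes called in Ex6DEL and WT, 61 between genotypes at 0 h and 28 for the difference of responses. With same-numbered arrays as a replicate block over 12 arrays, no member was called within a genotype, and the genes called were 92 in Ex6DEL, 85 in WT, 3 at 0 h and 1 for the difference of responses. The block together with both raised arrays left out, chosen after seeing the data, gave 2 members in Ex6DEL (876 genes), 2 in WT and 7 averaged. Quantile normalization with both left out, also chosen then, gave 6 members in Ex6DEL (784 genes), 4 in WT (343 genes) and 9 averaged. Genes above the median level alone gave 2 members each in Ex6DEL (1334 genes) and WT (525 genes), Egr3 and Ier3, with fewer genes tested, and 0 genes at 0 h and for the difference of responses. Array weights gave 5 members in WT (2289 genes), with 3006 genes averaged and 20 at 0 h. Quantile normalization over 12 arrays gave 291 genes in WT. Shifting arrays to one median gave 788 genes in Ex6DEL, 254 in WT and 1 for the difference of responses. Fitting only the groups compared gave 10 genes in Ex6DEL, 17 in WT and 0 at 0 h, with fewer arrays per fit. At an adjusted p under 0.01 the averaged response held 0 members and 406 genes, with 8 genes in Ex6DEL, 17 in WT and 1 for the difference of responses. The cause of the other shifts was not tested.

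Leaving out each of the 12 arrays in turn gave 0 to 3 members in Ex6DEL (26 to 1256 genes), 0 to 2 in WT (50 to 344 genes) and 2 to 5 averaged (895 to 2217 genes). The highest member counts came without Ex6DEL 0 h replicate 3. Between genotypes no member was called, and the genes ran from 0 to 35 at 4 h, 4 to 49 at 0 h and 2 to 23 for the difference of responses. Directions turned for values that had not passed: in Ex6DEL the change ran from -0.64 to 2.47 for Nr4a1, -0.24 to 2.92 for Nr4a2, -0.15 to 2.96 for Btg2 and -0.0020 to 1.59 for Ier2, and in WT from -0.0035 to 0.38 for Myc. The genotype difference ran from -1.42 to 0.090 for Egr2 at 4 h and from -0.26 to 2.84 for Nr4a1 at 0 h, and the difference of responses from -3.09 to 0.011 for Nr4a1. Signal near the floor of 2.21 limits Egr3 and Nr4a3 at 0 h, and the low values of Myc, some of them identical, may be background too.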
